A study of Mus musculus with 6 samples.

Results

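The control RNA of the series came from mouse retina 7 days after an injection of phosphate-buffered saline (PBS) into the vitreous body of the eye. It was measured in the Cy3 channel of 6 two-colour arrays, and its most and least abundant signals are described here together with the tissues its transcripts belong to. Genes counted as members when a probe stood well above background in Cy3, by the scanner software's own mark, on all 6 arrays. By this rule 20521 genes or names of 31699 on the array were members, 64.7% of them, and 16174 of the members carried a current gene symbol. They were read by 25716 of 39429 probes.

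The right eyes of male C57BL/6 mice aged 8 weeks received PBS, or titanium dioxide nanoparticles at a dose the labels call PTC or at 10 times that dose, called 10PTC, with 12 mice in each group. Retinas were pooled by 4 per tube, and RNA was taken from the pool. Each array carried the PBS control in Cy3 and a treated pool in Cy5, 3 PTC pools and 3 10PTC pools in all, and the dyes were never swapped. The control channel of an array is named here by the treated pool that shared it: slide 1 held PTC 1 and PTC 2, and slide 2 held PTC 3, 10PTC 1, 10PTC 2 and 10PTC 3. Whether the control RNA was the same pool on every array is not given, so that p-values below measure only the spread between these arrays, which may be technical.

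The retina lines the back of the eye. Rods and cones turn light into a signal through a cascade of opsin, the G protein transducin and a phosphodiesterase, and they pass it by way of bipolar, horizontal and amacrine cells to ganglion cells, whose axons form the optic nerve. Muller glia span the tissue and recycle its transmitters, and microglia are its resident immune cells. The retina touches the pigment epithelium behind it and lies near the lens, and the globe is moved by striated extraocular muscles set in fat and connective tissue.

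A level is log2 of the Cy3 signal after subtraction of the local background, scaled so that the median member probe of each array is at 0, and each gene is given by its brightest member probe. Levels ran from -3.44 to 8.18, a 3140-fold range, with a median of 0.26 and quartiles at -1.50 and 2.26. A probe's brightness depends on its sequence as well as on its target: where a gene had several member probes (4310 genes, the shared-run probes described below aside), they differed by a median of 1.83 log2 units. The order of levels between genes is therefore a description of signals and not a ranking of RNA copies. Spots well above background made up 67.2% and 68.0% of gene spots on slide 1 and 79.6% to 83.5% on slide 2, with no spot saturated. Arrays of 1 slide differed by 0.058 to 0.097 log2 units (scaled median absolute deviation over genes), and arrays of different slides by 0.184 to 0.205. Values of single arrays are therefore given by slide in what follows. Unless a slide is named, means, SDs, list medians and percentiles pool the arrays of both slides. Such an SD holds the difference between slides as well as the spread within them.

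The 5 genes that mark the RNA were read by the probes below, of which the first 30 of 60 bases are shown because the check of the label rests on them.
Gnat1: caaagaatatcccatgtgaggttacaggca
Sag: tctactcaagtgactattacgtcaagcctg
Glul: cgcttataaatcaacctaacatttataaga
Tnnc2: acgggaaaggctgctcctttgggctctgtg
Mb: cattttcttctggttttgggaaaatctctt
On mm9, the build of the array design, the Gnat1 probe lies at chr9:107577023-107577082 on the minus strand, the Glul probe at chr1:155756765-155756824 on the plus strand, the Tnnc2 probe at chr2:164602661-164602720 and the Mb probe at chr15:76846069-76846128, both on the minus strand. The Sag probe is listed over chr1:89724996-89728424 on the plus strand, a span longer than the probe. Whether a probe sits in a coding exon or a UTR was not determined here. Runs of 14 bases were shared with probes of other genes at Gnat1 (1 gene), Glul (2) and Tnnc2 (2), and not at Sag or Mb.

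Gnat1, the alpha subunit of rod transducin, had the probe of rank 14 in brightness, at 8.17 and 7.95 on slide 1 and at 7.74, 7.59, 7.76 and 7.75 on slide 2. Sag, the rod arrestin that shuts the cascade off, was at 6.46 on both arrays of slide 1 and between 6.05 and 6.32 on slide 2, at the 98.3rd percentile of members. Glul, the glutamine synthetase of Muller glia, was at the same percentile with 6.27 and 6.32 on slide 1 and 6.23 to 6.28 on slide 2. The retinal label was thus borne out by rod and Muller glia genes on every array. The muscle genes were also there. Tnnc2, the calcium sensor of fast skeletal muscle, was at 5.03 and 5.02 and then at 4.82, 4.76, 4.73 and 4.80, at the 94.2nd percentile. Mb, the oxygen store of striated muscle, was at 3.51 and 3.47 and then at 3.33, 3.34, 3.29 and 3.27, at the 85.7th percentile.

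**Figure D1:**
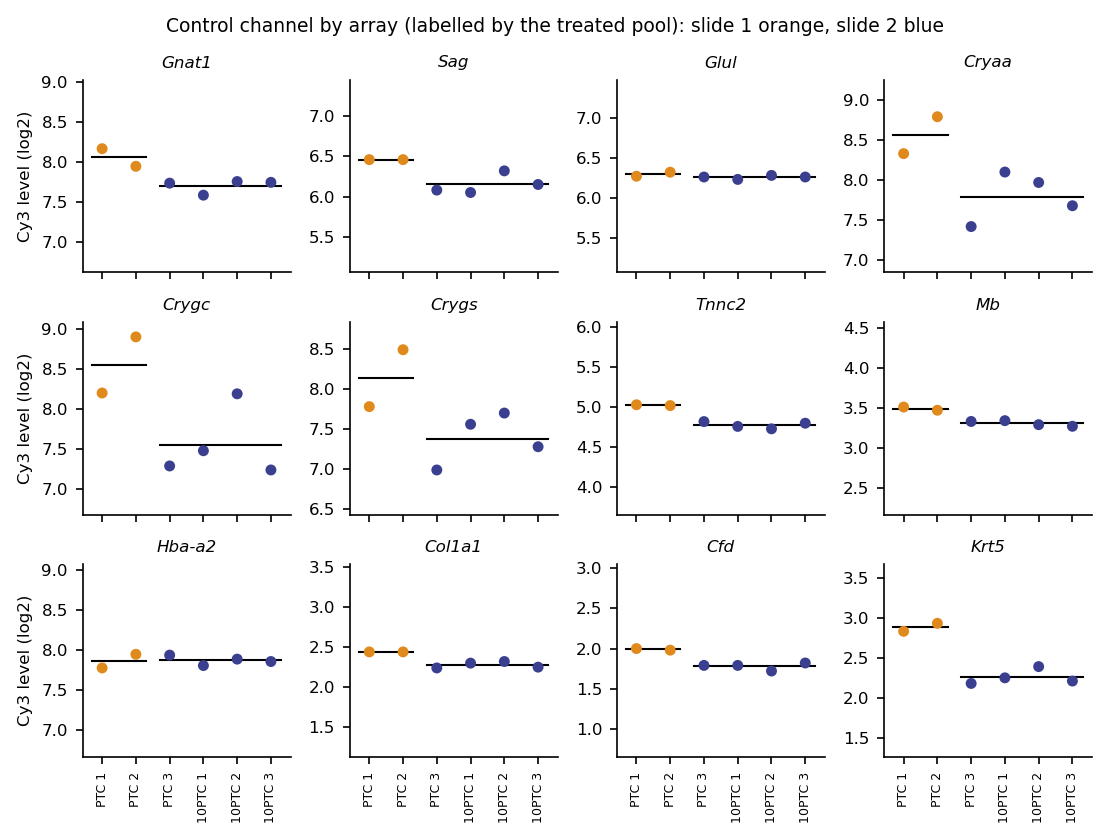
Cy3 level (log2, 0 = median member probe of the array) of 12 genes on each of the 6 arrays, with arrays named on the horizontal axis by the treated pool; orange points are slide 1, blue points slide 2, and bars are slide means. Tnnc2, Mb, Hba-a2 and Cfd repeat closely within a slide, while Cryaa, Crygc and Crygs spread over 1 log2 unit or more across the 6 arrays.

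Many of the brightest probes hold a short stretch that probes of other names hold too. Among the 100 brightest genes, 48 fell into 11 groups whose probes share a run of 14 bases, some of them related sequences such as Gapdh and its copies, and 22 fell into the 3 groups with a repeat-like run. In all, 21 of the 100 carried a name that matched no symbol. These 30-base stretches show 4 such groups, with the shared run in capitals. The first is known as a stretch of the B1 family of interspersed repeats.
Elk1: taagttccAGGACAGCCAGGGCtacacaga
F10: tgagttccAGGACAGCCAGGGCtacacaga
Kctd14: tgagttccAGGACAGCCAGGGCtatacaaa
Med16: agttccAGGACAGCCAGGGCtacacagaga
Cxcl11: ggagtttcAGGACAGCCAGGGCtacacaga
The next holds a run known from B2 repeats.
Medag: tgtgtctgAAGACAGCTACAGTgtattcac
Pbld1: agtgtctgAAGACAGCTACAGTgtaatttc
Synrg: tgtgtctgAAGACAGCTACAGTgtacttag
Endov: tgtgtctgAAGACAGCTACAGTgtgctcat
So does this pair.
Exosc2: accacatgGTGGCTCACAACCAtccgttac
Milr1: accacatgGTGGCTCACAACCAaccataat
The last is a stretch of Gapdh, the glycolytic dehydrogenase, and of names whose probes resemble it.
Gapdh: ccctacctACTCTCTTGAATACcatcaata
Gm10293: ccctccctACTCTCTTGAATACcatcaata
On mm9 these probes lie apart: Elk1 at chrX:20510521-20510580 (minus strand), F10 at chr8:13056119-13056178 and Kctd14 at chr7:104606896-104606955 (both plus), Med16 at chr10:79357669-79357728 and Cxcl11 at chr5:92788567-92788626 (both minus). Medag is at chr5:150234212-150234271, Pbld1 at chr10:62540215-62540274, Synrg at chr11:83855517-83855576, Endov at chr11:119372675-119372734, Exosc2 at chr2:31536706-31536765 and Milr1 at chr11:106628762-106628821, all on the plus strand. Gapdh is at chr6:125111869-125111928 (minus) and Gm10293 at chr3:52417889-52417948 (plus). The run AGGACAGCCAGGGC was found in 7 probes of the whole array (0.018% of probes), whose levels lay between 5.81 and 7.93, and its reverse complement in 5 probes. AAGACAGCTACAGT was in 11 probes (0.028%), at 6.73 to 7.55, and reversed in 2. GTGGCTCACAACCA was in 3 probes (0.008%), at 7.61 to 7.76, and ACTCTCTTGAATAC in 8 (0.02%), at 6.77 to 7.97, and neither was found reversed. A match is a description of the probe's letters and says nothing of what bound there.

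Other probes of these genes read lower, by amounts that varied widely. Elk1, a transcription factor of the ETS family, was at 7.93 by the probe shown and at -2.87 by its other probe. Ttc38 was at 7.85 against -2.91, -2.74 and -1.60, and Kctd14 at 7.82 against -0.98 and -1.46. F10, the clotting factor X that the liver secretes, was at 7.82, while its other probe was above background on 4 of the 6 arrays. Slc10a1, a bile acid carrier of liver cells, was at 7.76, with its other probe above background on 3 arrays. The bright Slc10a1 probe shares a 14-base run with that of Rn4.5s. Synrg was at 7.45 against 2.24 and 1.73, 2610028H24Rik at 7.67 against 0.34, and Milr1 at 7.61 against 0.43 and 6.73. The other probes of Medag, Coa8, Med16 and Cxcl11 were at 4.84, 4.82, 3.29 and 3.21, against 7.50, 7.18, 7.56 and 7.56. Gapdh itself was read by 6 further probes at 4.25 to 7.34, and the names Gm2451, Gm5523, Gm10293, Gm10313 and Gm12070, whose probes hold its run, were at 7.89, 7.84, 7.81, 7.81 and 7.73. Zfp628, a zinc finger protein, was at 8.07 by a probe with 86.7% G and C, and at 0.72 by its other probe. When the 71 probes of the array that hold a run common to 4 or more of the bright genes were left out, a choice made after seeing the data, 75 of the 100 brightest genes remained among the 100.

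**Figure D2:**
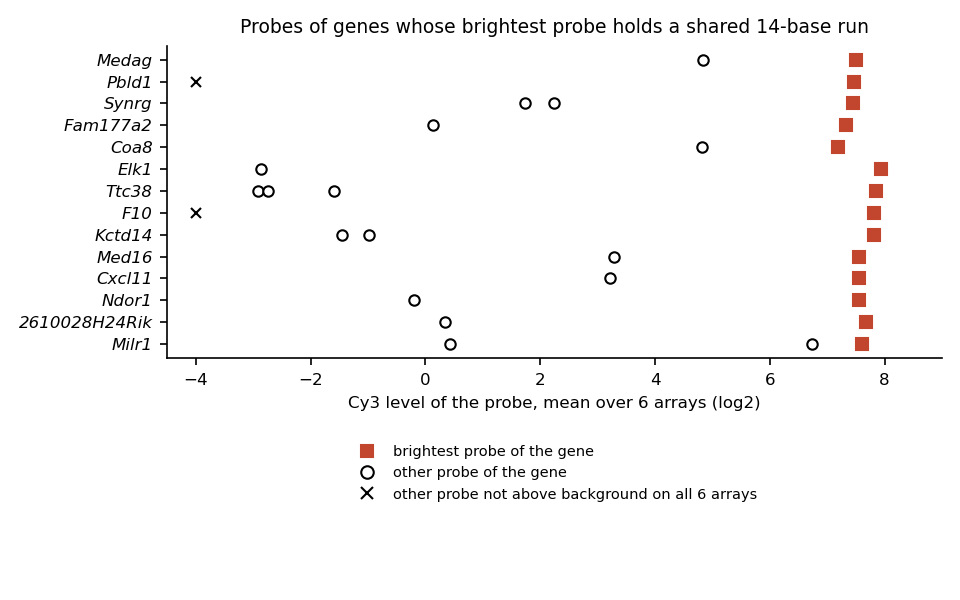
Cy3 level (log2, mean over 6 arrays) of every probe of 14 genes whose brightest probe holds a shared 14-base run; red squares are the brightest probe, open circles other probes above background on all 6 arrays, and crosses, drawn at the left edge, other probes that were not. The brightest probes all lie above 7, while the other probes range from -2.91 to 6.73.

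Genes of energy metabolism were also bright. Aldoa, the aldolase of glycolysis, had the brightest probe of all, at 8.58 and 8.61 on slide 1 and 8.04, 7.80, 8.10 and 7.95 on slide 2. Gapdh was at 7.98 ± 0.36 (SD, n = 6 arrays), and the lactate dehydrogenase Ldha at 7.47 ± 0.18. Other Ldha probes were at 2.89 and 4.29. All 17 listed glycolysis genes were members, with a median level of 6.52 at the 98.8th percentile, and 5 of them were among the 100 brightest genes. COX1 and COX2, subunits of cytochrome oxidase that the mitochondrion encodes itself, were at 8.13 ± 0.36 and 7.84 ± 0.26. COX1 varied within slide 2, from 7.60 to 8.44. All 20 nuclear genes listed for the respiratory chain were members, with a median of 5.55 at the 96.6th percentile; Cox6a1, at 7.36, was the highest. All 24 ribosomal protein genes listed were members too, at a median of 6.25, led by Rps14 at 7.57 ± 0.25.

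Rod genes stood beside them. All 25 listed were members, with a median of 6.25 at the 98.3rd percentile, and 8 were among the 100 brightest genes. After Gnat1 came Rom1 and Prph2, which shape the rim of the outer segment disc, at 7.82 ± 0.26 and 7.69 ± 0.29, the inhibitory phosphodiesterase subunit Pde6g at 7.72 ± 0.23 and Nrl, the transcription factor that commits a cell to the rod fate, at 7.69 ± 0.18. All 13 cone genes were members at a lower median of 3.61, led by the cone phosphodiesterase subunit Pde6h at 5.98 ± 0.17 and the cone transducin subunits Gngt2 at 5.50 ± 0.04 and Gnat2 at 5.06 ± 0.07. Of the cone pigments, Opn1mw was at 4.51 and Opn1sw at -0.31.

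Muller glia genes (15 of 15 members, median 2.79) were led by Clu, a secreted chaperone, at 7.00 ± 0.20, Glul, and Apoe, a lipid carrier, at 6.23 ± 0.18. Bipolar genes (13 of 13, median 4.01) were led by Pcp2 at 6.30 ± 0.16, Otx2 at 5.72 ± 0.16 and the G protein subunit Gng13 at 5.70 ± 0.17. Amacrine genes (14 of 14, median 1.54) were led by the glycine carrier Slc6a9 at 5.70 ± 0.11 and the vesicular GABA and glycine carrier Slc32a1 at 5.28 ± 0.04. Ganglion cell genes (15 of 15, median 2.01) were led by Thy1, a surface protein, at 5.57 ± 0.13 and the neurofilament Nefl at 4.76 ± 0.22. Horizontal cell genes were near the middle of all members (4 of 5, median -0.19), with Onecut1 not above background. Of the 19 synapse genes on the array, all were members, at a median of 2.94, and the vesicle calcium sensor Syt1 was the highest at 6.29 ± 0.03.

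The less common cells of the retina were nearer the middle. Microglia genes (14 of 14) had a median of 0.15, at the 48.6th percentile of members, and ran from P2ry12 at -2.70 to Itgam at 4.23 ± 0.19. Astrocyte genes (5 of 5) had a median of -0.70, and Gfap, the filament that glia make under stress, was at -1.07 and -1.16 on slide 1 and -1.34, -1.43, -1.27 and -1.32 on slide 2, at the 28.8th percentile. Vascular endothelium genes (10 of 11, median 0.50) were led by the growth factor receptors Kdr at 3.73 and Flt1 at 3.52, and Tek was not above background. Immediate early genes, which cells switch on within minutes of a stimulus, had 8 members of 10 with a median of -0.18, Jun and Nr4a1 highest at 2.93 each. Eif2s3y and Ddx3y, on the Y chromosome, were at 1.79 and 0.71 and Xist was not above background, as the male label has it. In all, 128 of the 130 genes listed for cells of the retina were members (98.5%).

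**Figure D3:**
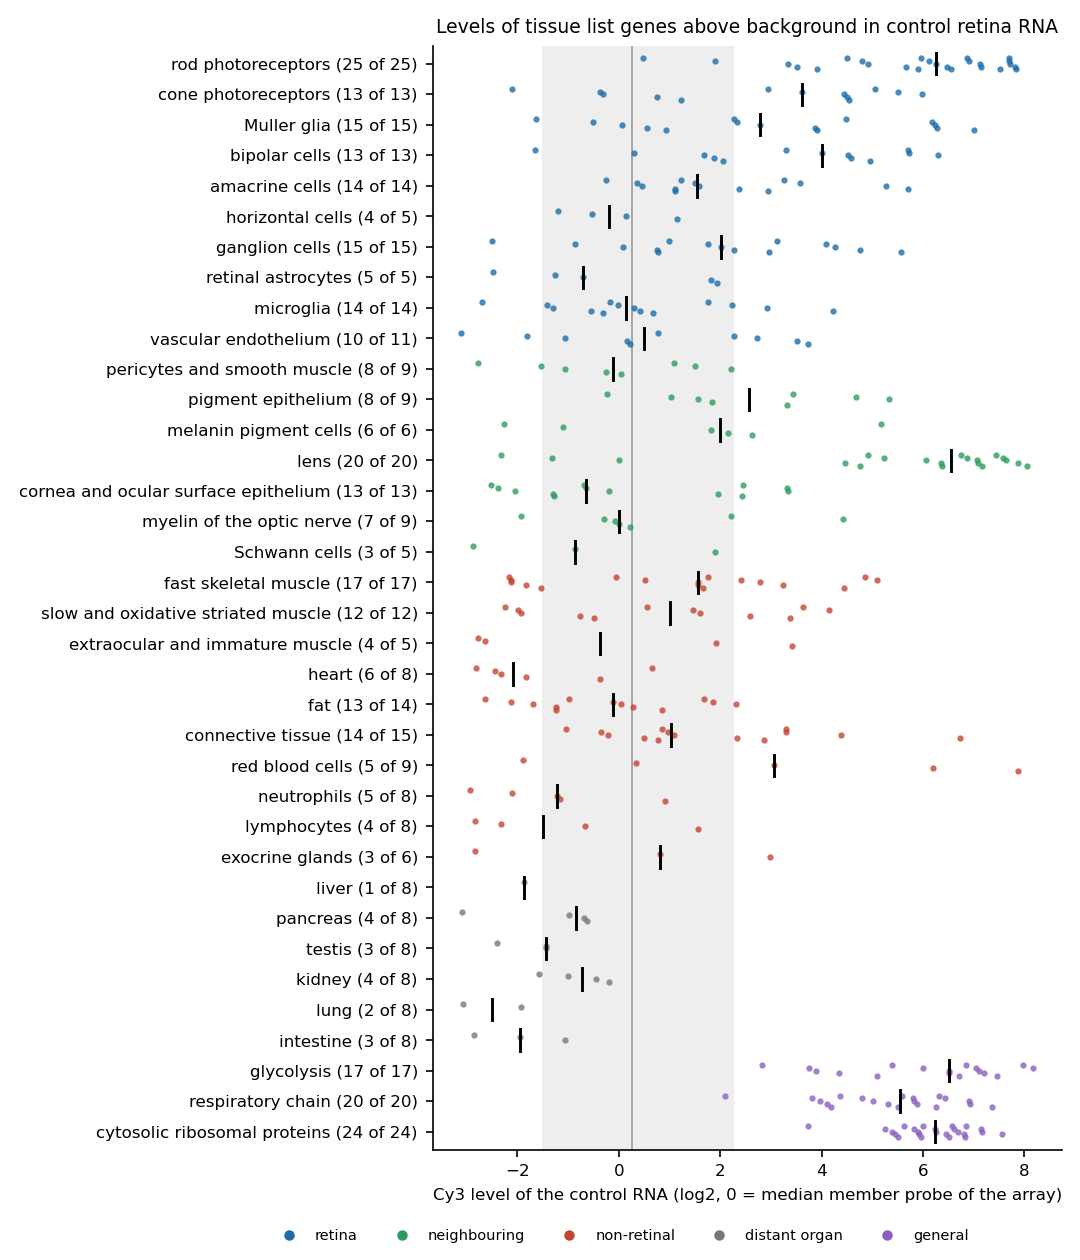
Mean Cy3 level (log2) of each listed gene that was a member, 1 row per list with the number of members of those on the array; black bars are list medians, the grey line and band are the median and quartiles of all members, and colours mark the class of the list. Lens, rods, glycolysis, respiratory chain and ribosomal proteins lie mostly far to the right, fast muscle spreads from -2.16 to 5.10, and members of the lists of distant organs stay below 0.

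The neighbouring tissue with the highest signals was the lens. All 20 lens genes were members, with a median of 6.56 at the 98.8th percentile; 14 were among the 1000 brightest genes and 6 among the 100. Alpha, beta and gamma crystallins, the proteins that make the lens clear, filled the upper places: Cryaa at 8.05 ± 0.48, Crygc at 7.88 ± 0.66, Crygs at 7.63 ± 0.51, Crygd at 7.59 ± 0.34 and Cryge at 7.45 ± 0.32. These are the brightest probes. The other Cryaa probe was at 3.25, and those of Crygc were at 7.48 and 7.73. The gamma crystallins are near copies of each other, so that their probes may share signal, and retinal cells are known to make crystallins of their own. Genes of the lens fibre cell itself were lower: the filament genes Bfsp2 and Bfsp1 were at 4.92 and 4.75, the water channel Mip at 4.46, and the junction gene Gja3 at -1.31.

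Some crystallins varied between arrays of the same slide. Of the 1000 brightest genes, 6 had an SD above 0.3 there (median 0.049): Crygc (0.45), Crygs (0.37), Cryaa (0.31), COX1 (0.37), Cox6c2 (0.34) and Gm2437 (0.31), the last pair named after their values were seen. Crygc was at 8.20 and 8.90 on slide 1 and at 7.29, 7.48, 8.19 and 7.24 on slide 2. Cryaa was at 8.33 and 8.79, then at 7.42, 8.10, 7.97 and 7.68. Crygs followed with 7.78 and 8.49, then 6.99, 7.56, 7.70 and 7.28. For all 3 genes PTC 2 was the highest array, and PTC 3 or 10PTC 3 the lowest. Muscle genes did not vary in this way: over the 17 fast muscle genes the SD within a slide had a median of 0.038 and reached 0.10 at most, against a median of 0.084 and a highest value of 0.45 over the lens list. These values are descriptions, and no test of the difference was made.

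Pigment epithelium genes (8 of 9 members) had a median of 2.58, led by the transport protein Ttr at 5.33 ± 0.12, the retinol dehydrogenase Rdh5 at 4.68 ± 0.17 and the visual cycle enzyme Rpe65 at 3.43 ± 0.03, and Best1 was above background on slide 2 alone. Of the 6 melanin genes, all members, Dct was highest at 5.17 ± 0.13 and the defining enzyme Tyr was at -1.11. Pericyte and smooth muscle genes (8 of 9) had a median of -0.11, led by Myl9 at 2.21, and Myh11 passed on slide 2 alone. Cornea and ocular surface genes were all members (13 of 13) at a median of -0.65; Trp63, a factor of epithelial stem cells, was at 3.34, the corneal enzyme Aldh3a1 at 3.32, Krt5 at 2.46, and Krt12, the keratin of the cornea, at -0.19. Myelin genes of the optic nerve had 7 members of 9 (median 0.01, Mbp at 2.21), with Mobp and Cldn11 above background on slide 2 alone. Schwann cells had 3 of 5, with Pmp2 and Egr2 not above background. Together these lists had 65 members of 71 (91.5%), and 69 on slide 2 taken alone.

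Striated muscle genes were present in the control RNA as well. All 17 genes of fast muscle were members, with a median of 1.57 at the 67.0th percentile. The thin filament genes Tnni2 and Tnnc2 were at 5.10 ± 0.04 and 4.86 ± 0.13, the light chain Myl1 at 4.45 ± 0.21, the fast myosin Myh4 at 3.24 ± 0.09 and the alpha actin Acta1 at 1.57 ± 0.04, while the calcium release channel Ryr1 was at -2.16. The other Myl1 probe was at -0.48. All 12 genes of slow and oxidative muscle were members as well (median 1.01), led by the oxidase subunit Cox6a2 at 4.14 ± 0.13, Tnnt1 at 3.63 ± 0.11 and Mb. The myosins of developing and extraocular muscle were present, with Myh8 at 3.42 ± 0.10 and Myh3 at 1.91 ± 0.13, and Myh13, the extraocular myosin, was low at -2.64 ± 0.09. Chrng was at -2.77, and Myog was not above background. Heart genes had 6 members of 8 at a median of -2.08, with Myl7 not above background and Mybpc3 above it on slide 2 alone.

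Fat, connective tissue and blood were also present. Of the fat genes, 13 of 14 were members with a median of -0.12, led by the lipid carrier Fabp4 at 2.32 ± 0.12 and the protease Cfd (adipsin) at 1.85 ± 0.11, and Lep passed on slide 2 alone. Connective tissue had 14 members of 15 (median 1.03), led by Sparc, which retinal glia also make, at 6.73 ± 0.19, the proteoglycan Dcn at 4.38 ± 0.20, the collagen Col1a2 at 3.30 ± 0.25 and Pi16 at 3.29 ± 0.12. Dpt passed on slide 2 alone. The alpha globins stood out in blood: Hba-a2 was at 7.78 and 7.95 on slide 1 and 7.94, 7.81, 7.89 and 7.86 on slide 2, which made it the ninth brightest gene, and Hba-a1, its near copy, was at 6.20 ± 0.13. Hbb-b2 was at 3.07 ± 0.11 and the heme enzyme Alas2 at 0.34 ± 0.15. Epb42, Ahsp and Rhd, genes of red cells and their precursors, were not members. In all, 5 of the 9 red cell genes on the array were members.

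Leukocytes gave less. Neutrophil genes had 5 members of 8 at a median of -1.21, S100a8 at -2.94, with Ngp and Retnlg above background on neither slide and Ltf on slide 2 alone. Lymphocyte genes had 4 of 8 at a median of -1.49, with Cd3d and Ms4a1 above background on neither slide and Cd8a on slide 2 alone. Exocrine gland genes had 3 of 6, with Amy1, an amylase that other tissues make too, at 2.99 ± 0.11, while Dcpp1 and Prol1 passed on neither slide and Pip on slide 2 alone. How transcripts of muscle, fat, blood or lens came into the pooled RNA was not tested.

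Over the whole array 64.7% of genes were members, and these counts are read beside that share. Red cell genes (5 of 9), neutrophil genes (5 of 8), lymphocyte genes (4 of 8), exocrine gland genes (3 of 6) and Schwann cell genes (3 of 5) lay near or below it. Of 48 genes of liver, pancreas, testis, kidney, lung and intestine, 17 were members (35.4%), against 83 of 102 for the non-retinal lists above (81.4%). Of the 8 liver genes, 1 was a member, the oxidase Cyp2e1 at -1.86, and albumin (Alb) was not above background. The highest of the distant genes was Slc22a6, a kidney carrier, at -0.19 ± 1.07, and no array of slide 1 reached the level of any array of slide 2. The count depended on the slide: 17 distant genes were above background on both arrays of slide 1 and 32 on all 4 of slide 2. The 8 dimmest members with a symbol, Obox3, Carlr, Stard6, Ky, Ppp1r14d, 4930577N17Rik, Fgd5 and Cabcoco1, lay between -3.44 and -3.34, and at that level a gene is only just told from background.

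The comparison of slides asked whether the control channel was the same on both. It was not. Slide 2 alone had 24585 genes above background and slide 1 alone 20530, with 4063 of them on slide 2 only and 8 on slide 1 only. Over the 20521 members, slide 2 differed from slide 1 in 14990 genes by limma at an adjusted p under 0.05, 73.0% of those tested, with 3916 higher (19.1%) and 11074 lower (54.0%). The median difference over all members was -0.14 log2 units, and differences of lists are read against that shift. The split rests on the scaling: with the 75th percentile of each array in place of the median, 6830 genes were higher and 3512 lower, with the median shift at 0.02. With the median over all gene probes it was 2438 higher and 16695 lower, and with quantile normalization 4788 and 7979. Slide and control RNA cannot be told apart here.

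The genes that were much higher on slide 2 were dim ones. By at least 2-fold, 1091 genes were higher and 1 was lower, and across the alternatives the first count ran from 664 to 1650. With genes ranked by level and cut into 10 groups of like size, the brightest group held 0 increases of that size without regard to the test, and the third group from the dim end held 373. Vmn1r87, a vomeronasal receptor, was at -1.92 and -1.61 on slide 1 and between 1.78 and 2.08 on slide 2, a 13.1-fold difference (3.71 ± 0.10 log2 units, SE, adjusted p = 2.89e-07). Gpr37l1, a receptor of glia, went from a mean of -2.18 to 1.43 (adjusted p = 8.98e-08), and Nog, the BMP inhibitor noggin, from -2.78 to 0.74 (adjusted p = 8.98e-08). Olfr1349, an odorant receptor, went from -3.01 to 0.25 (adjusted p = 8.98e-08). Gml2 and Pkd1l3 differed by 2.93 and 2.88 log2 units. Each of these 6 genes kept its call under every alternative run.

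Most of these genes were also higher on slide 2 in the other channel. The 1091 genes were chosen by the control channel of the same spots. All 10PTC pools were on slide 2, so that slide and dose are mixed in the Cy5 comparison. The cause of the differences was not tested. In Cy5, the channel of the treated pools, 1054 of the 1091 genes were also at least 2-fold higher on slide 2 (96.6%), against 1537 of all members (7.50%); Vmn1r87 differed there by 3.98, Gpr37l1 by 3.79, Nog by 3.61 and Olfr1349 by 4.36. Odorant receptors, which the nose and not the retina is known for, had 89 members of 1099 on the array, of which 49 were called at least 2-fold higher on slide 2 (55.06%, against 5.32% of all members), with a median difference of 1.18. They were dim, at a median level of -1.58. In the group of like level, the third from the dim end, 373 of 2051 members were at least 2-fold higher without regard to the test. Vomeronasal receptors had 24 members of 265, with 10 called at least 2-fold higher (41.67%). The probes' base composition moved with the difference: the share of genes at least 2-fold higher, without regard to the test, was 1.30% where the probe had 35% to 40% G and C and 12.27% at 50% and over. Its part in the difference was not tested. Among the distant organ genes, Slc22a6 was 2.08 log2 units higher on slide 2, Slc34a1 1.65, Ctrb1 1.61 and Aqp2 1.60, and the T cell gene Cd3e was 1.09 higher.

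**Figure D4:**
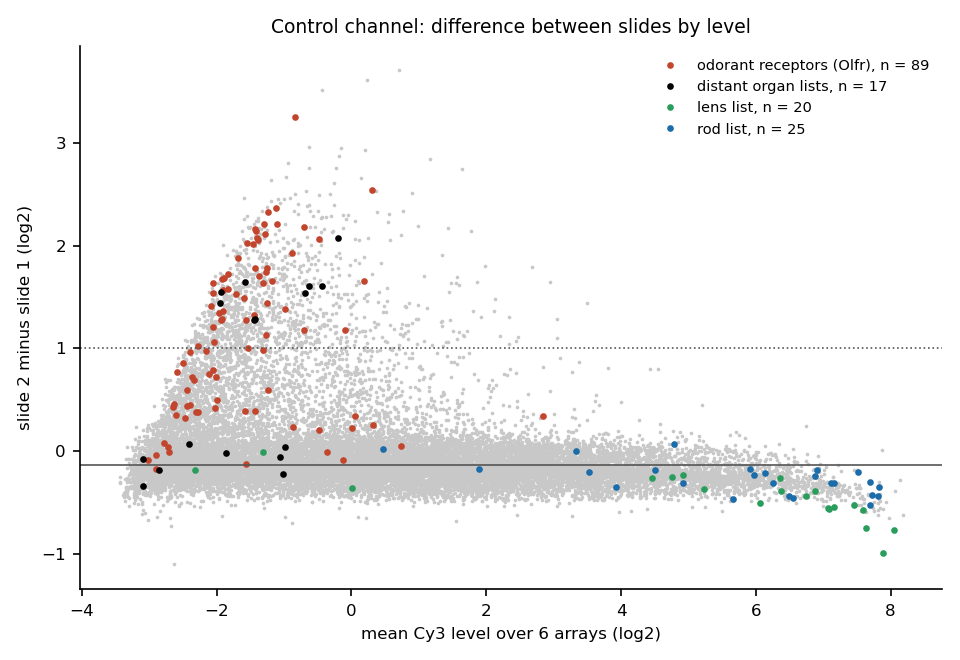
Difference between slides (slide 2 minus slide 1, log2) against mean Cy3 level for all 20521 member genes in grey; coloured points are odorant receptors and the lens, rod and distant organ lists, the solid line is the median of all genes at -0.14 and the dotted line marks a 2-fold difference. Large increases lie at low levels and hold many odorant receptors, while lens and rod genes lie at high levels and mostly below the line.

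Lists of bright genes were mostly lower on slide 2. For comparison, 54.0% of all members were called lower, and the brightest of the 10 groups by level had a median of -0.24. On slide 2 the 20 lens genes lay at a median difference of -0.41, 19 of them called lower, and the median stayed between -0.16 and -0.68 under every alternative. Glycolysis had -0.36 with all 17 lower, and stayed between -0.05 and -0.62. Rods had -0.30 with 21 of 25 lower, and ribosomal proteins -0.26 with 23 of 24, but under quantile normalization these medians were 0.05 and 0.00. Gnat1 differed by -0.35 (adjusted p = 0.00415), but by 0.11 after quantile normalization (adjusted p = 0.157). Fast muscle had -0.20, close to the shift of all genes. Hba-a2 differed by 0.01 (adjusted p = 0.853) and by -0.25 to 0.53 under other scalings, and Glul by -0.04 (adjusted p = 0.324), with 0.22 under quantile normalization.

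The largest falls on slide 2 were uneven between arrays. Crygc was 2.0-fold lower there (SE 0.30 log2 units, adjusted p = 0.019), Cryaa differed by -0.77 ± 0.20 (adjusted p = 0.0118) and Crygs by -0.75 ± 0.24 (adjusted p = 0.0255). These calls rested on PTC 2 and on the settings. Without PTC 2 the differences were -0.65 (adjusted p = 0.13), -0.53 (adjusted p = 0.0824) and -0.40 (adjusted p = 0.18), and Crygs also missed the threshold without 10PTC 3 (-0.72, adjusted p = 0.0519). Under quantile normalization, with all arrays, they were -0.46 (adjusted p = 0.167), -0.18 (adjusted p = 0.482) and -0.24 (adjusted p = 0.438), and with intensity-trended robust moderation all 3 missed the threshold (adjusted p from 0.0518 to 0.0907). 4930412C18Rik, at -1.07 on PTC 1 and -2.73 on PTC 2, had -1.10 (adjusted p = 0.0352), and the call was lost without PTC 3 or any single 10PTC array (adjusted p from 0.0595 to 0.0773). That call was also lost on processed signals, with 75th percentile scaling and with trended robust moderation (adjusted p from 0.081 to 0.168). Chil1, a chitinase-like protein, was at 2.48 on PTC 1, 1.54 on PTC 2 and 1.23 to 1.42 on slide 2. Its difference was -0.68 (adjusted p = 0.0273), a call lost without any single 10PTC array (adjusted p from 0.0527 to 0.063). It was also lost on processed signals, with 75th percentile scaling, with quantile normalization and with trended robust moderation (adjusted p from 0.0617 to 0.0954). Cd300lf, a receptor of myeloid cells, had -0.66 (adjusted p = 0.0101), lost without PTC 1 (-0.54, adjusted p = 0.063), and with the median over its 3 probes the difference was -0.04 (adjusted p = 0.492).

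The treated pools on the same arrays show which tissue lists of the control RNA the treated RNA shared. Values are log2 of treated over control, averaged over both doses, after loess normalization within each array. Members had to be above background in the control channel only, so that counts over them are a description and lean towards genes that are high in it. Of the members, 11085 differed by limma at an adjusted p under 0.05 (54.0%), 5461 higher (26.6%) and 5624 lower (27.4%), with a median of -0.01. Dye and treatment cannot be told apart, since the control was always in Cy3. In pooled tissue, fewer cells of a type and less RNA per cell cannot be told apart either. Slide 1 alone, with 2 arrays, called 211 genes.

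Muscle was lower in every treated pool. All 17 fast muscle genes were lower, with a median of -2.22. That median was -2.5 on background-subtracted signals without normexp, -2.62 on processed signals and -2.6 on the ratios of the authors' deposited table. The 17 genes were chosen by the control channel, so that their count is a description, and 16 of them were above background in Cy5 on all 6 arrays. The medians of single arrays were -2.25 and -1.98 on slide 1 and -2.60, -1.79, -1.90 and -2.08 on slide 2. Tnnc2 had ratios of -2.91 and -2.62 on slide 1 and -3.32, -2.38, -2.48 and -2.60 on slide 2, a mean of -2.72 ± 0.08 (SE, adjusted p = 1.3e-05), or 6.58-fold lower. Acta1 was at -2.22 ± 0.06, Ckm, the muscle creatine kinase, at -1.97 ± 0.05 and Tcap, a cap of the sarcomere, at -2.54 ± 0.07 (adjusted p = 8.13e-06 for each). Of the slow and oxidative genes 11 of 12 were lower (median -1.13, and -1.68 to -1.71 without normexp, on processed signals and on the ratios of the authors' deposited table), Mb by 6.28-fold and Cox6a2 by 9.43-fold. Tnnt1, at 0.00 (adjusted p = 0.978), was the gene that did not pass. Myh8 was at -2.51 and Myh3 at -2.50, while Myh13 was not well above background in Cy5 on any array and has no fold here. Heart genes had a median of -0.11, and Tnnt2 among them was higher at 1.26.

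Fat, connective tissue and blood genes were lower too, less evenly. Of the 14 fat genes on the array, 11 were above background in Cy5 on all 6 arrays. Of the 13 chosen by the control channel, 11 were lower (median -0.71). That median was -1.48 on background-subtracted signals without normexp, -1.25 on processed signals and -1.24 on the ratios of the authors' deposited table. Cfd had ratios of -2.84 and -3.60 on slide 1 and -4.48, -3.89, -3.73 and -3.69 on slide 2, a mean of -3.71 ± 0.18 or 13.1-fold lower (adjusted p = 7.47e-05). Fabp4 was at -1.73. Adipoq and Cidec were called lower too, but stood above background in Cy5 on 4 and 3 of the 6 arrays, so that no size is given for them. Connective tissue had 9 of 14 genes lower and Sparc higher at 0.42, with a median of -0.64, which was -0.11 on slide 1 and -1.02 on slide 2. Pi16 was at -2.83 ± 0.26 and Col3a1 at -1.83 ± 0.23. All 5 red cell genes were lower (median -1.33). Hba-a2 was at -0.48 and -1.69 on slide 1 and at -2.09, -1.41, -1.36 and -1.34 on slide 2 (mean -1.40 ± 0.18, adjusted p = 0.00115). No red cell gene was called on slide 1 alone, where PTC 1 was the mildest array for Hba-a2, Hba-a1, Hbb-b2 and Alas2.

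The neighbouring tissues gave mixed values. Of all members, 26.6% were called higher and 27.4% lower, and the count of lower cornea genes given below is near that share. Lens genes had a median of 0.08, which was -0.27 on slide 1 and 0.40 on slide 2. Arrays of the same slide did not agree: their medians were 0.18 and -0.59 on slide 1 and 0.67, -0.08, -0.02 and 0.67 on slide 2. Each dose counts equally, so that PTC 3 alone stood for its dose on slide 2. No lens gene was called lower, and Cryaa, Crygc and Crygs were higher at 0.65, 0.76 and 0.61. These ratios hold the uneven Cy3 values given above: PTC 2, the highest array in Cy3, had the lowest ratio for each of the 3 genes, at 0.09, -0.22 and -0.19. The call of Crygc was lost without PTC 3, 10PTC 1 or 10PTC 3 (adjusted p from 0.0686 to 0.077), and that of Crygs without any array but PTC 2, while Cryaa kept its call without any single array. Cornea genes were lower in 4 of 13 and higher in 2 (median -0.28), with a median of 0.72 and 0 genes called lower on slide 1 alone, and a median of -0.70 and 9 called lower on slide 2 alone. The difference between these was not tested. Krt12 was at 3.32 and 4.22 on slide 1 and at -1.42, -1.50, -0.08 and -1.65 on slide 2 (adjusted p = 0.574 over all 6). Krt5 was at 0.51 and 0.94 and then at -2.30, -2.38, -0.17 and -1.78, so that the mean of -0.86 did not pass (adjusted p = 0.15), and Krt15 passed at -1.39 (adjusted p = 0.0289) but not without PTC 3, 10PTC 1 or 10PTC 3 (adjusted p from 0.0826 to 0.0897). Melanin genes were higher in 4 of 6 (median 0.43). Pigment epithelium genes had a median of 0.08 and Schwann cell genes -0.02 with none called.

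Among the lists of retinal cells, microglia had the median farthest from 0. Of all members, 26.6% were called higher and 27.4% lower, and the counts here are read beside these shares. All 14 microglia genes were higher (median 1.18), the protease Ctss by 3.51-fold and the receptor Cx3cr1 by 2.31-fold, and the glial filament Gfap was 2.88-fold higher. On slide 1 alone none of the microglia or ganglion cell genes was called, with medians of 1.27 and -0.54. Ganglion cell genes were lower in 13 of 15 (median -0.46), Tubb3 at -0.52 and Nefl at -0.63 among them. Rod genes had a median of -0.01, with 7 higher and 2 lower: Sag was at 0.72 ± 0.07 (adjusted p = 0.00047), Cnga1 at 0.50 and Gnat1 at 0.09 (adjusted p = 0.395). Without PTC 1, whose ratio was -0.37, Gnat1 was at 0.19 and passed (adjusted p = 0.0207). Muller glia genes were higher in 8 of 15 and lower in 3 (median 0.18), Glul among the latter at -0.62 ± 0.06 (adjusted p = 0.000353). All 11 probes shown above with a B1 or B2 run were called higher in the treated channel, among them Elk1 at 0.51 ± 0.05 (adjusted p = 0.000443), Kctd14 at 0.65 (adjusted p = 0.000278) and Medag at 0.50 (adjusted p = 0.000623), whereas Gapdh was at 0.03 (adjusted p = 0.631). COX1 was uneven, with ratios of -0.50 and -0.03 on slide 1 and 0.02, 0.11, -1.32 and -1.42 on slide 2 (adjusted p = 0.0596). In the count of listed genes above background, the treated channel had 79 of the 102 non-retinal genes and 129 of the 130 retinal ones, against 83 and 128 in the control channel.

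**Figure D5:**
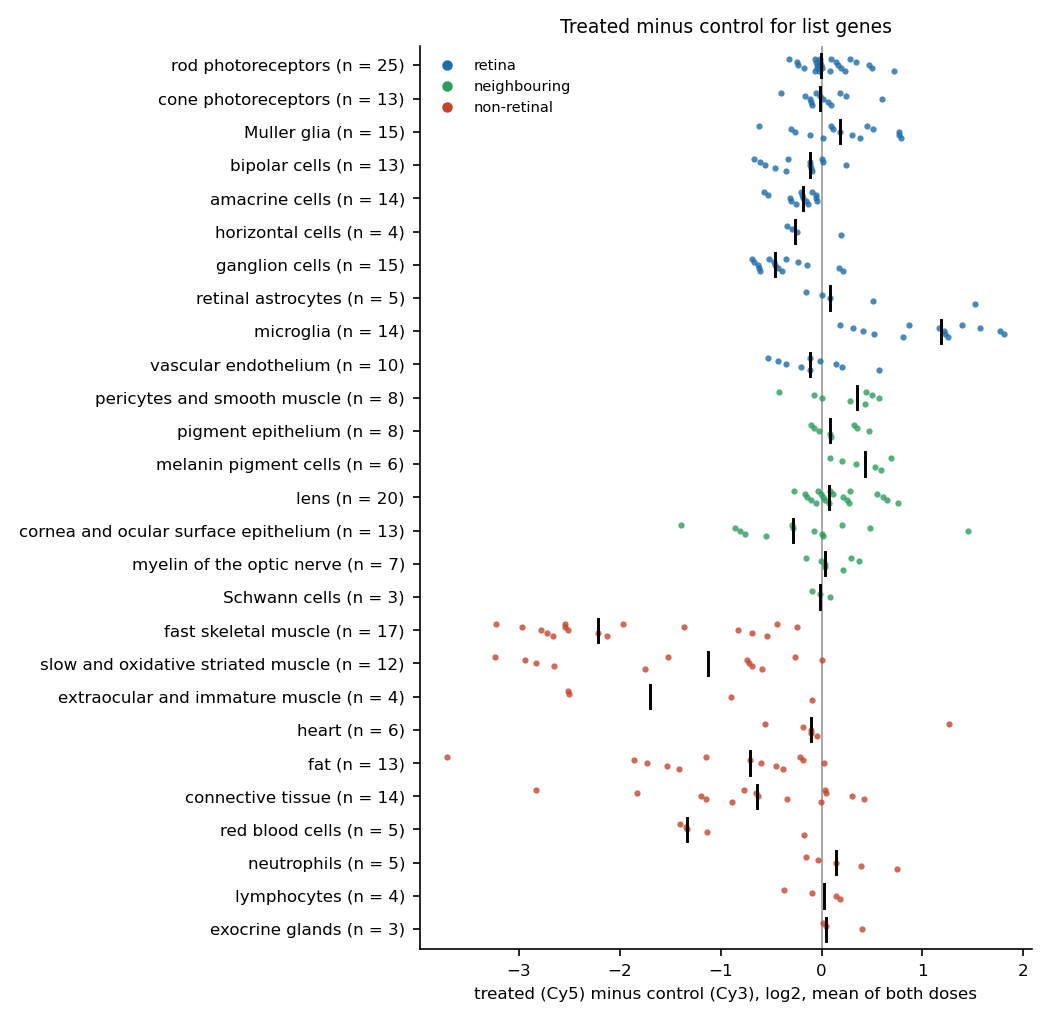
Treated minus control (log2, mean of both doses) of each listed gene that was a member in the control channel, 1 row per list, with list medians as black bars and the class of the list in colour. Muscle, fat, connective tissue and red cell genes lie mostly below 0, microglia genes all lie above it, and rod genes cluster around it.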

How the data were processed

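RNA of 4 pooled retinas was extracted with Trizol and labelled directly during reverse transcription, with dCTP carrying either dye, per the labels' protocols. The deposited scanner files of 6 Agilent whole mouse genome arrays hold an intensity per spot and channel, made with Agilent Feature Extraction 10.7.3.1 per the file headers (9.3.2.1 per the submitters' processing notes), and log10 ratios per the file headers. The authors also deposited a log2 ratio table; set against the scanner log10 ratios its columns had a slope of 3.32 and r from 0.982 to 0.999, so that it runs as Cy5 over Cy3, with medians from -0.075 to 0.039 and its centring otherwise unknown. The deposited files' own flags for background, saturation, outliers and control spots were used as given.

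Control levels are log2 of the Cy3 mean signal minus the median local background, median scaled per array over the member probes. Before scaling, the median net signal of members was 442.2 to 577.3 per array, against 23.9 to 27.6 for the negative control probes. The 1377 control spots and the outlier spots (113 to 194 per array) were left out, and spots of a probe were averaged. RefSeq accessions named 26157 probes, symbols 3128 and synonyms 911, while 9233 kept the name of the array design. A gene is its brightest member probe, and sequences and coordinates are those of the array design on mm9. Slides were compared with limma 3.58.1 (R 4.3.3, data.table, version 1.17.8), with 4 residual and 2.98 prior degrees of freedom. Treated over control ratios after normexp (offset 50) and loess were fitted with a coefficient per dose and the mean of the doses tested against 0 (3.03 prior degrees of freedom). All p-values were adjusted by Benjamini-Hochberg over all members, with a threshold of 0.05. Python 3.11.15, pandas 2.3.3, numpy 2.4.6 and matplotlib 3.10.9 were used for the rest. The number of arrays and the signal over background limit the precision.

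Genes named are the 5 markers, the 25 brightest and 8 dimmest members with a symbol, up to 5 of the brightest members of each of 39 lists (449 names, 446 on the array) and the missing members where 5 or fewer, the 6 largest differences between slides each way, and up to 3 members of smallest p per list in the treated comparison. Not every gene that meets the rule is printed, and some listed genes are counted but not reported by name here. Members and lists were chosen with earlier results of these data known. Genes named outside the rule were chosen after their values were seen.

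On simulated data with 200 changed genes, 92% of 1.25-fold and 98% of 1.5-fold differences between slides were called, of 20521 genes in all, with 13 false calls. Treated against control gave 88%, 100% and 4. The simulated noise was independent between genes and held no shift of all genes, unlike the data, where 73.0% of members were called between slides. These rates therefore do not carry over to the calls reported here. Alternatives were other background corrections, scalings, filters, probe rules, moderation, the authors' table, slide and replicate blocks, single slides and each array left out; leaving out probes with a shared run was added after seeing the data.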

Additional observations from a re-analysis of the deposited data

Results flagged for a closer look

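Among 86 groups of 4 arrays on slide 2 looked at, 8 had an array that stood apart from the other 3 by more than Dixon's 95% limit, and chance alone flags about 1 in 20. Gnat1 was at 7.59 on 10PTC 1 against 7.74 to 7.76 on the others, and 4930412C18Rik at -3.10 on 10PTC 3 against -2.99 to -2.97. The bipolar list median was 3.96 on 10PTC 2 against 3.84 to 3.86, the microglia median 0.15 on 10PTC 1 against 0.17, and the pigment epithelium median 2.50 on PTC 3 against 2.59 to 2.60. The neutrophil median was -1.08 on PTC 3 against -1.24 to -1.23, the testis median -1.13 on 10PTC 2 against -0.99 to -0.97, and the kidney median -0.38 on 10PTC 3 against -0.49 to -0.48.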

How the results depend on the processing

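The count of genes that differed between slides (14990) was 26130 with no filter on dim probes, where more genes are tested, and 13152 to 14849 with an array left out. The count for treated against control (11085) was 211 on slide 1 alone, with 2 arrays, and 8168 to 10916 with an array left out. The other settings kept both within 1.5 times. With the replicate number as a block the counts were 14009 and 9579; same-numbered arrays correlated at -0.31, 0.16 and 0.23 in their ratios and at -0.06, 0.25 and 0.25 in Cy3, so that the numbers do not pair the samples. Under quantile normalization the median of all rod genes, lower on slide 2, became 0.05, and of the rod genes refitted singly Gnat1 moved to 0.11, Rom1 to 0.08, Pde6g to 0.05 and Nrl to 0.16; the cause was not tested. Of the 100 brightest genes, 74 to 100 stayed among the 100 under the alternatives. Non-retinal list genes above background numbered 83 to 93 and distant organ genes 17 to 35. Probes near background limit what can be said of dim genes.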
